A study of Mus musculus with 9 samples.

Results

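The regulators of G protein signaling (RGS) described here are Rgs1, Rgs2, Rgs3, Rgs10, Rgs14, Rgs16, Rgs18 and Rgs19. They were taken by gene symbol from a table of log2 expression values, and each of the 8 had 1 row among 21212 rows, of which 18786 carried a single symbol. Total RNA came from primary microglia of wild-type CD-1 mice (strain label CD1). The brains of P0-P1 pups were pooled by litter. The cells were separated on a Percoll gradient and cultured for 5 to 7 days with 10 ng/ml each of M-CSF and GM-CSF, growth factors that every group received. After a night in medium without serum they were given PBS (resting), 100 ng/ml LPS, a ligand of Toll-like receptor 4 (M1-skewed), or 20 ng/ml IL-4 (M2a-skewed) for 4 h. Each condition had 3 Affymetrix Mouse Exon 1.0 ST arrays, 9 in all. Whether the replicates of a condition came from separate litters or cultures was not stated, so the p-values reflect array-to-array variation that could be technical.

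RGS proteins shorten signals from G protein-coupled receptors. An activated receptor loads the G alpha subunit with GTP, and the RGS domain speeds up hydrolysis of that GTP, so that alpha and beta-gamma subunits rejoin and signaling ends. Rgs1, Rgs2, Rgs3, Rgs16 and Rgs18 belong to the R4 subfamily, Rgs10 and Rgs14 to the R12 subfamily and Rgs19 to the RZ subfamily. In microglia and macrophages these pathways carry chemokine, purine and lipid mediator signals that steer migration, and Rgs10 is known as a restraint on inflammatory NF-kappaB signaling in microglia.

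Rgs2 and Rgs16 were the members with the largest fall and the largest rise after LPS, and the 250 bases before their transcription start sites are shown for that reason. The sequences are those of RefSeq on GRCm38.p6, which held a promoter for 5 of the 8 genes. Both run 5′ to 3′ on the strand of the gene, and capitals mark TGACG, the core letters of the cAMP response element, on either strand.
Rgs2, chr1:144004150-144004399, minus strand: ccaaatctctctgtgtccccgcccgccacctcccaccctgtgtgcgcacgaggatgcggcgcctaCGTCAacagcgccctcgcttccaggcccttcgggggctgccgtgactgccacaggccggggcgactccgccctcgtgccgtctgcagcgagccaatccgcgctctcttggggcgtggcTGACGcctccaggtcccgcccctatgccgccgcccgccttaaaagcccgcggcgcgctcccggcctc
Rgs16, chr1:153740103-153740352, plus strand: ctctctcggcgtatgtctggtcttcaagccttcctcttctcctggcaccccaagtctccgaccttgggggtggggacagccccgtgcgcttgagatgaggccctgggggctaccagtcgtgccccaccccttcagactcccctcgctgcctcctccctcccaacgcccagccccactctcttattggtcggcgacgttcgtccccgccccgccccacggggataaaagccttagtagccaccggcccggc
The Rgs2 window held TGACG at 67 to 63 bases before the start on the strand of the gene and at 185 to 181 bases on the opposite strand, and the Rgs16 window held none. Of 32851 promoter windows of this length 17.8% held TGACG on either strand. The other motifs searched, also on both strands, were a kappaB consensus, TGANTCA (AP-1), TTCNNNNGAA (STAT6) and TATAAA, found in 3.90%, 6.75%, 5.85% and 12.4% of the windows, and neither the Rgs2 nor the Rgs16 window held one. Across the 8 windows of the 5 genes, each of the 2 Rgs3 windows held TATAAA, and no other match was found. No match means that these letters were not in the window.

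Microglial markers were measured on all arrays. The mean of 10 measured markers of microglia and macrophages (Aif1, Csf1r, Itgam and Trem2 among them) lay between 9.95 and 10.35 on the PBS arrays, between 9.55 and 9.64 on the LPS arrays and between 10.03 and 10.13 on the IL-4 arrays. At an adjusted p under 0.05 (limma), 7 of the 10 were lower and 2 higher with LPS than with PBS. Of all rows 22.4% were lower and 15.4% higher. In a culture with several cell types, fewer cells of a type and less RNA per cell cannot be told apart. Replicate 3 of PBS and replicate 3 of LPS stood apart from the other arrays of their condition. All 13 measured genes of motile cilia were higher in these arrays than in replicates 1 and 2, by 1.86 (PBS) and 1.78 (LPS) in the mean of the list. The mean of 10 oligodendrocyte lineage markers was higher by 0.98 in both and that of 8 astrocyte markers by 0.52 and 0.43, whereas the mean of 8 neuron markers differed by 0.05 and 0.04, although Map2 among them was higher by 0.72 and 0.61. The mean of the microglia and macrophage markers was also higher in replicate 3, by 0.36 (PBS, 8 of 10 genes above both other arrays, Cx3cr1 by 1.68) and 0.08 (LPS). Of the RGS genes, Rgs14 was lower in replicate 3 by 0.38 (PBS) and 0.42 (LPS), Rgs16 by 0.52 and 0.16, Rgs18 by 0.54 and 0.25, and Rgs19 by 0.29 and 0.26. Rgs1 and Rgs2 were higher in PBS replicate 3 by 0.34 and 0.26, and Rgs10 was lower in LPS replicate 3 by 0.37. The part of other cell types in the results was not tested, and the fit was repeated on 7 arrays without these 2. For IL-4 against PBS, the fit on 7 arrays sets IL-4 arrays (motile cilia mean 8.39 to 8.70) against PBS replicates 1 and 2 (7.19 and 7.29). Leaving out PBS replicate 3 (9.10) thus widens the gap in the motile cilia genes for that comparison.

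LPS changed 7 of the 8 RGS genes, in both directions. Rgs1, Rgs14 and Rgs16 rose and Rgs2, Rgs3, Rgs10 and Rgs19 fell at an adjusted p under 0.05 (limma, Benjamini-Hochberg over all rows), and Rgs18 did not pass. Of all 21212 rows 37.8% passed, 15.4% as higher and 22.4% as lower. With the median of each array subtracted, 43.3% of all rows passed and 63.9% of these calls were higher, against 40.8% as deposited. The 8 genes still gave 3 higher and 4 lower. For 7 genes, the same that passed, the LPS arrays did not overlap with the PBS arrays, as for 45.7% of all rows. The median difference was -0.42 over the 8 genes and 0.0051 over all rows, on the log2 scale. On the 7 arrays without replicate 3 of PBS and LPS the same 7 genes passed, 3 higher and 4 lower, where 47.4% of all rows did. Fewer genes passed with IL-4: Rgs16 alone rose past the threshold, against 5.40% of all rows (3.35% higher and 2.05% lower). Rgs1, Rgs2, Rgs3, Rgs10 and Rgs16 had IL-4 arrays that did not overlap with the PBS arrays, as did 29.0% of all rows. An unadjusted p under 0.05 (limma) was found for 5 of the 8, and for 4398 of all 21212 rows. The median difference with IL-4 was -0.23 over the 8 genes and -0.0166 over all rows. The mean of 13 motile cilia genes lay between 8.39 and 8.70 with IL-4, against 7.19, 7.29 and 9.10 on PBS replicates 1, 2 and 3. Their median difference from PBS was 0.76, and none of the 13 was called. Some markers of other cell types were also higher on the IL-4 arrays. The mean of 6 endothelial markers lay between 7.34 and 7.37 there, between 6.64 and 6.72 with PBS and between 6.73 and 6.95 with LPS, with 3 of the 6 called against PBS, Flt1 (2.55), Cdh5 (1.14) and Pecam1 (0.79), while Cldn5 (-0.23) and Kdr (-0.32) had lower means that did not pass. The mean of 11 fibroblast and mural markers lay between 8.19 and 8.22, 7.83 and 7.98, and 7.85 and 8.02 in the same order, with 3 of the 11 called, Dcn (1.21), Lum (1.14) and Col3a1 (0.41). The mural genes Acta2, Abcc9, Kcnj8 and Myh11 lay between -0.11 and -0.03. Cspg4 (0.15), Col1a1 (0.06) and Col1a2 (0.41) had higher means that did not pass. Pdgfrb, also not called, averaged 9.17 with PBS and 9.24 with IL-4. The part of these other cell types in the IL-4 results was not tested. LPS and IL-4 are both set against the same PBS arrays, so the values of the 2 comparisons are not independent.

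**Figure D1:**
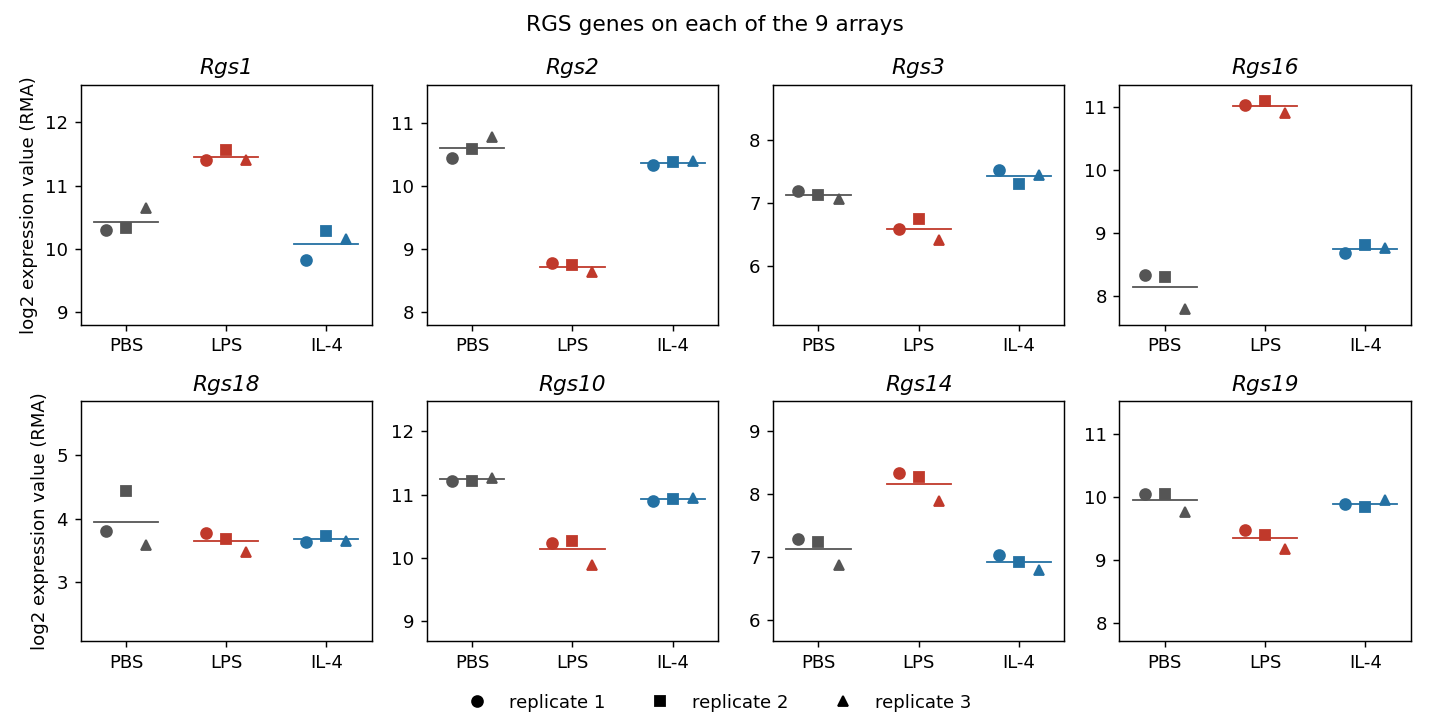
Log2 expression (RMA) of the 8 RGS genes on each of the 9 arrays, 1 panel per gene, with the y axis in log2 units. Circles, squares and triangles are replicates 1, 2 and 3, and lines are the mean of the 3 arrays. Levels can be compared between conditions within a panel but not between panels. The LPS arrays lie apart from all PBS arrays in 7 panels, above them for Rgs1, Rgs14 and Rgs16 and below them for Rgs2, Rgs3, Rgs10 and Rgs19.

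Rgs16 showed the largest rise. It acts on Gi and Gq family subunits. Its log2 values were 8.34, 8.30 and 7.80 with PBS, 11.03, 11.10 and 10.91 with LPS and 8.69, 8.81 and 8.76 with IL-4. The 3 conditions formed separate ranges, with PBS lowest and LPS highest. LPS raised Rgs16 7.29-fold over PBS, by 2.86 ± 0.134 on the log2 scale (SE, n = 3 arrays per condition, limma adjusted p = 8.35e-07). With IL-4 it was 1.52-fold higher than with PBS, by 0.61 ± 0.134 (95% confidence interval 0.30 to 0.91, limma adjusted p = 0.0382). PBS replicate 3 was the lowest array, and without replicate 3 of PBS and LPS the IL-4 difference was 0.43 (adjusted p = 0.000949) and the LPS difference 2.75. The call with IL-4 held under 9 of 20 alternatives. It was lost without PBS replicate 2, without LPS replicate 1 or 2 and without any of the IL-4 arrays, at adjusted p between 0.0606 and 0.135 with differences between 0.58 and 0.68. The LPS level exceeded the IL-4 level by 2.26 (4.79-fold, adjusted p = 3.37e-06).

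Rgs1 is known from lymphocytes, where it dampens migration toward chemokines. Its values were 10.29, 10.33 and 10.65 with PBS, 11.41, 11.57 and 11.40 with LPS and 9.82, 10.28 and 10.15 with IL-4. Every LPS array lay above every other array, and the IL-4 arrays lay just below the PBS arrays. The rise with LPS was 2.05-fold, 1.04 ± 0.135 on the log2 scale (SE, n = 3, limma adjusted p = 0.000364). With IL-4 the difference from PBS was -0.34 and missed the threshold (adjusted p = 0.198). LPS and IL-4 differed by 1.38 (2.60-fold, adjusted p = 6.49e-05).

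Rgs2, which prefers Gq subunits, had the largest fall. Its log2 values were 10.44, 10.59 and 10.77 with PBS, 8.78, 8.74 and 8.63 with LPS and 10.33, 10.38 and 10.40 with IL-4. The LPS arrays lay well below all others, and the IL-4 arrays just under the lowest PBS array. LPS lowered Rgs2 3.70-fold, a log2 difference of -1.89 ± 0.0839 (SE, n = 3, limma adjusted p = 6.27e-07). The IL-4 difference of -0.23 (95% confidence interval -0.43 to -0.04) did not pass after adjustment (adjusted p = 0.163). Against IL-4, LPS gave a difference of -1.65 (3.14-fold lower, adjusted p = 1.35e-06).

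Rgs3 acts on Gi and Gq subunits. Its values were 7.19, 7.12 and 7.06 with PBS, 6.58, 6.74 and 6.42 with LPS and 7.52, 7.30 and 7.45 with IL-4. It was the member whose mean was lowest with LPS and highest with IL-4, with no overlap between the 3 conditions. The LPS difference was -0.54 ± 0.0929 (1.45-fold lower, limma adjusted p = 0.00186). The IL-4 difference of 0.30 (95% confidence interval 0.09 to 0.51) missed the threshold (adjusted p = 0.110), and was 0.27 on 7 arrays (adjusted p = 0.0424). Set directly against each other, LPS minus IL-4 was -0.84 on the log2 scale (1.79-fold lower, adjusted p = 0.000135).

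Rgs18, the remaining R4 member, is known from megakaryocytes and platelets. Its values were 3.81, 4.44 and 3.58 with PBS, 3.77, 3.67 and 3.47 with LPS and 3.63, 3.73 and 3.64 with IL-4, which put it among the dimmest 7070 rows by mean. The conditions overlapped, and PBS replicate 2 was the highest array. The LPS difference was -0.31 (95% confidence interval -0.75 to 0.13, limma adjusted p = 0.248) and the IL-4 difference -0.28 (adjusted p = 0.451). Without PBS replicate 2 they were -0.06 (adjusted p = 0.707) and -0.03 (adjusted p = 0.924). The mean of 4 measured megakaryocyte markers lay between 6.18 and 6.59 on all arrays. Pf4 among them averaged 8.38 with PBS, 8.43 with LPS and 9.21 with IL-4. Itga2b, Gp9 and Ppbp averaged 6.66, 5.85 and 4.06 with PBS and 6.73, 5.81 and 4.23 with IL-4. With IL-4 1 of the 4 was called higher, as were 3.35% of all rows.

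Of the R12 subfamily, Rgs10 fell and Rgs14 rose with LPS. Rgs10, a Gi family regulator, had log2 values of 11.22, 11.22 and 11.27 with PBS, 10.24, 10.27 and 9.88 with LPS and 10.90, 10.93 and 10.95 with IL-4. The 3 conditions did not overlap, with IL-4 between the others and LPS replicate 3 the lowest array. LPS lowered Rgs10 2.15-fold, a log2 difference of -1.11 ± 0.0954 (SE, n = 3, limma adjusted p = 3.23e-05), which was -0.97 on the 7 arrays. The IL-4 difference of -0.31 (95% confidence interval -0.53 to -0.09) missed the threshold over 9 arrays (adjusted p = 0.110). It passed once LPS replicate 3 was left out (adjusted p = 0.00557), on the 7 arrays (-0.29, adjusted p = 0.00188) and when only the 6 PBS and IL-4 arrays were fitted (adjusted p = 0.0147). From IL-4 to LPS the difference was -0.80 (1.74-fold lower, adjusted p = 0.000213).

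Rgs14 joins an RGS domain to Ras-binding domains and a GoLoco motif that holds inactive Gi subunits. Its values were 7.28, 7.23 and 6.87 with PBS, 8.33, 8.27 and 7.89 with LPS and 7.02, 6.92 and 6.79 with IL-4. The LPS arrays lay above all others, while PBS replicate 3 fell within the IL-4 range. With LPS it rose 2.06-fold, by 1.04 ± 0.144 (SE, n = 3, limma adjusted p = 0.000544), and by 1.05 on 7 arrays. The IL-4 difference was -0.22 (adjusted p = 0.432) over 9 arrays and -0.34 (adjusted p = 0.0101) over 7. LPS exceeded IL-4 by 1.26 (2.39-fold, adjusted p = 0.000169).

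Rgs19, a Gi family regulator first known as GAIP, had values of 10.04, 10.05 and 9.76 with PBS, 9.47, 9.40 and 9.17 with LPS and 9.88, 9.84 and 9.95 with IL-4. The LPS arrays lay below all others, and the IL-4 arrays fell inside the PBS range. The LPS difference was -0.60 ± 0.102 (1.52-fold lower, limma adjusted p = 0.00161). The IL-4 difference of -0.06 had a 95% confidence interval from -0.29 to 0.17 (adjusted p = 0.766), and was -0.16 on the 7 arrays (adjusted p = 0.0517). LPS and IL-4 differed by -0.54 (adjusted p = 0.00264).

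**Figure D2:**
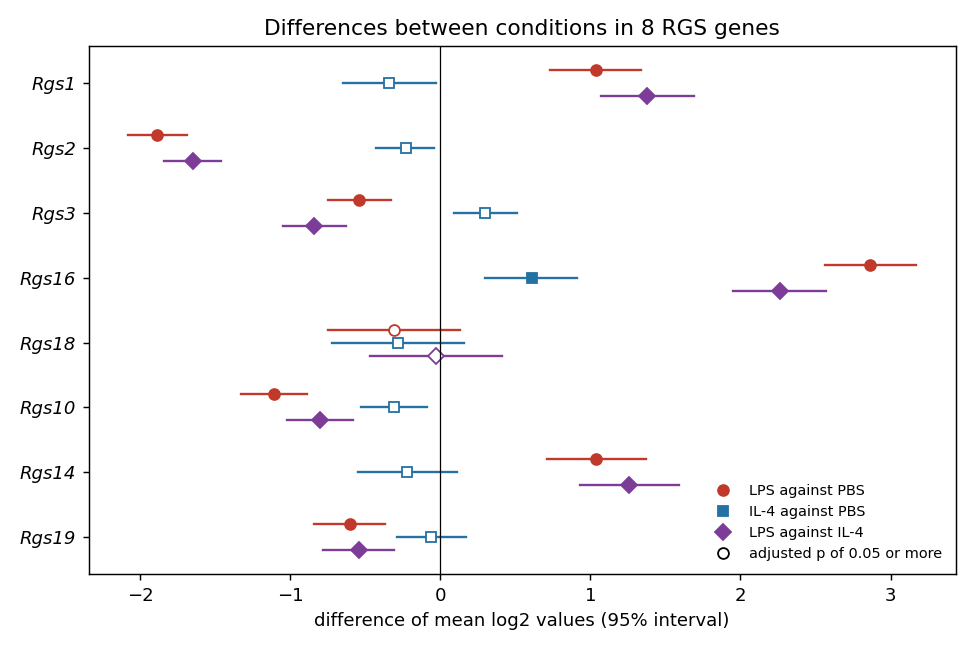
Difference of mean log2 values (x axis) for each of the 8 RGS genes in LPS against PBS, IL-4 against PBS and LPS against IL-4, with lines for 95% confidence intervals from limma and open symbols for an adjusted p of 0.05 or more. The LPS against PBS estimates run from -1.89 (Rgs2) to 2.86 (Rgs16) and only the interval of Rgs18 holds 0, while the IL-4 against PBS estimates lie between -0.34 and 0.61.

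The direct comparison of LPS with IL-4 called the same 7 genes, 3 higher and 4 lower, where 46.9% of all rows were called (21.0% higher and 25.9% lower). Their arrays did not overlap either, as for 59.9% of all rows, and the median difference was -0.29 over the 8 genes and 0.0294 over all rows. By their means the genes fell into 4 orders. Rgs1 and Rgs14 were lowest with IL-4 and highest with LPS, and Rgs16 was lowest with PBS and highest with LPS. Rgs3 was lowest with LPS and highest with IL-4, and Rgs2, Rgs10, Rgs18 and Rgs19 were lowest with LPS and highest with PBS. PBS and IL-4 are neighbours in all 4 orders, and their difference passed the test for Rgs16 alone. On the chromosome, in the gene order of GRCm38.p6, Rgs2, Rgs13, Rgs1, Rgs21 and Rgs18 are consecutive protein-coding genes of chromosome 1. Within this run Rgs2 fell, Rgs1 rose and Rgs18 did not pass with LPS. Rgs16 lies next to Rgs8 on the same chromosome.

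A further list, called the other RGS genes here, held 16 genes with a row. It includes the R7 members, and also Rgs7bp and Rgs9bp, which bind R7 proteins and are not RGS proteins themselves. With LPS 3 of the 16 rose and 2 fell (31.2%, against 37.8% of all rows), and the median difference was 0.00. With the median of each array subtracted 6 rose and 2 fell, where 43.3% of all rows were called (5872 higher and 3323 lower). The risers were Rgs7, Rgs8 and Rgs17, a Gi and Gz family regulator of the RZ group. Rgs7 works with the atypical beta subunit Gnb5 in neurons. It stood at 6.81, 7.02 and 7.31 with PBS and at 8.06, 8.12 and 8.73 with LPS, without overlap, a rise of 1.26 ± 0.188 (limma adjusted p = 0.000829). Rgs8, the chromosomal neighbour of Rgs16, read 7.36, 7.27 and 6.72 with PBS, 8.52, 8.53 and 7.72 with LPS and 7.12, 6.91 and 6.94 with IL-4. Its rise was 1.14 ± 0.239 (adjusted p = 0.00524), and replicate 3 was low in both conditions. Rgs12, the third R12 gene, went the way of Rgs10, from 8.01, 8.02 and 8.37 to 7.05, 7.17 and 7.51, a difference of -0.89 ± 0.133 (adjusted p = 0.000835). Rgs7bp, which anchors R7 proteins at the membrane, fell by 0.65 on the log2 scale (adjusted p = 0.000483), and Rgs17 rose by 0.35 (adjusted p = 0.00087).

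With IL-4 none of the 16 passed (limma, 1 with an unadjusted p under 0.05, as for 4398 of 21212 rows). The 7 arrays gave 8 calls with LPS, where Rgs4, Rgs9 and Rgs20 joined the 5, and 8 with IL-4, where 47.4% and 30.1% of all rows were called. Leaving out PBS replicate 3 alone gave 8 with LPS too (36.8% of all rows), and the replicate number as a block over the 6 arrays of LPS and PBS also gave 8 (47.5% of all rows). Rgs22 shows how far replicate 3 could move a member: it read 5.84, 5.94 and 7.65 with PBS, 5.75, 5.99 and 7.27 with LPS and 6.65, 6.88 and 6.65 with IL-4. Its replicate 3 exceeded the mean of replicates 1 and 2 by 1.76 (PBS) and 1.39 (LPS), beside 1.86 and 1.78 for the mean of the motile cilia genes.

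**Figure D3:**
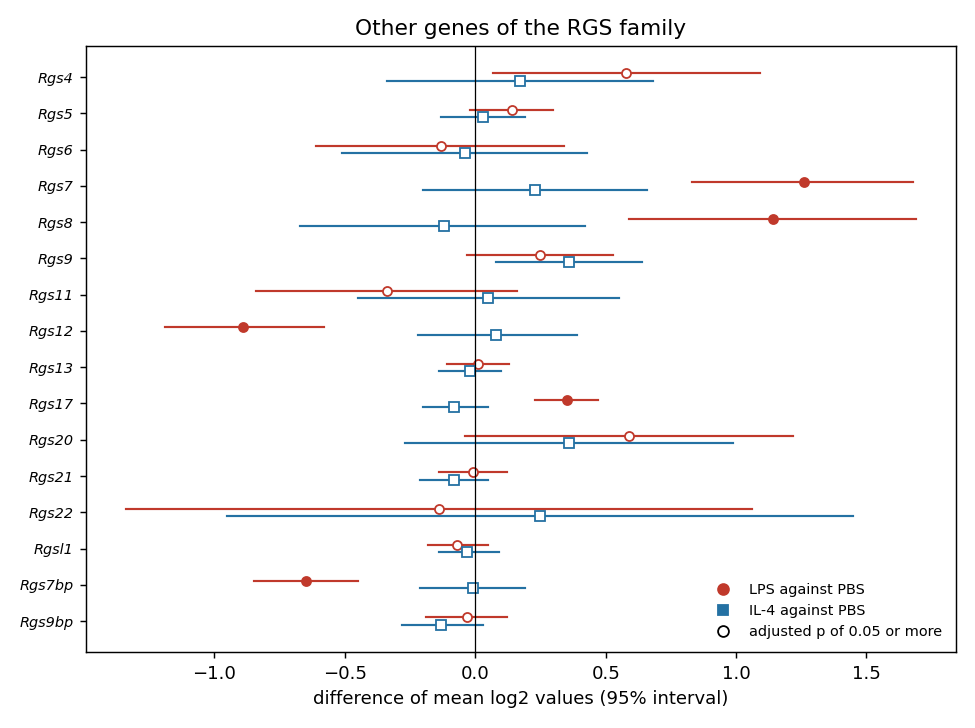
Difference of mean log2 values from PBS (x axis) with LPS and with IL-4 for the 16 other RGS genes and binding proteins, with lines for 95% confidence intervals from limma and open symbols for an adjusted p of 0.05 or more. Rgs7, Rgs8, Rgs12, Rgs17 and Rgs7bp have filled symbols with LPS and no gene has one with IL-4, and the intervals of Rgs22, whose replicate 3 was high in PBS and in LPS, are the widest of the 16.

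The proteins around the RGS genes were followed in 7 lists with 92 measured genes: G alpha subunits, G beta and gamma subunits, adenylyl cyclases with the cAMP phosphodiesterases, phospholipase C beta with IP3 receptors, receptor kinases with arrestins, other G alpha regulators, and Gi-coupled receptors of microglia. With LPS 14 of the 92 were higher and 35 lower (53.3%, against 37.8% of all rows). This became 22 higher and 25 lower with the median of each array subtracted, where 43.3% of all rows were called. With IL-4 3 were higher and 6 lower (9.78%, against 5.40%). When the dimmest 7070 rows were left out, 53.8% of the remaining rows were called with LPS and 9.51% with IL-4. The shares of the 92 genes, from the fit of all rows, lay near these. On the 7 arrays the counts were 17 and 41 with LPS and 18 and 20 with IL-4, where 47.4% and 30.1% of all rows were called.

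Of 14 Gi-coupled receptors, whose signals RGS proteins restrain, 3 were higher and 7 lower with LPS (71.4%, against 37.8% of all rows, median -0.35). Fpr2, a formyl peptide receptor, rose by 2.35 ± 0.114 (limma adjusted p = 1e-06) and S1pr1, a receptor for sphingosine 1-phosphate, by 1.28 ± 0.148. Cxcr4, the receptor of the chemokine Cxcl12, changed by -2.58 ± 0.0671 (adjusted p = 3.19e-08) and Cnr2, the cannabinoid receptor of immune cells, by -2.48 ± 0.186 (adjusted p = 1.4e-05). With IL-4 3 receptors were lower and none higher (21.4%, against 5.40% of all rows). P2ry13, an ADP receptor, changed by -1.11 ± 0.195 (adjusted p = 0.0152), a call lost without PBS replicate 2 or any IL-4 array, and Cxcr4 by -0.81 ± 0.0671 (adjusted p = 0.000355).

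The 16 G alpha subunits include the Gi and Gq family subunits that these RGS proteins act on. Of the 16, 3 were higher and 6 lower with LPS (56.2%, against 37.8% of all rows). With the median of each array subtracted 4 were higher and 1 lower, where 43.3% of all rows were called. Gna12, of the G12 family, changed most, by -1.18 ± 0.0537 (limma adjusted p = 7.2e-07). Gna13 of the same family rose by 0.42 ± 0.0468 (adjusted p = 0.000155) and Gnai3, a Gi subunit, by 0.24 ± 0.0524. Gna11, of the Gq family, gave -0.43 ± 0.142 (adjusted p = 0.0406), a call kept under 9 of 20 alternatives and lost without PBS replicate 1 or 3, LPS replicate 1 or 2 or any IL-4 array. With IL-4 none of the 16 passed (limma, 3 with an unadjusted p under 0.05, as for 4398 of 21212 rows). Of 17 beta and gamma subunits 3 rose and 3 fell with LPS (35.3%, against 37.8% of all rows). Gnb4 rose by 2.27 ± 0.0885 (adjusted p = 3.05e-07) and Gng11 by 0.48 ± 0.106. Gnb5, the partner of R7 proteins, gave -0.68 ± 0.0827 (adjusted p = 0.000257) and Gng2 -0.83 ± 0.178. With IL-4 Gng2 was also lower, at -0.98 ± 0.178 (adjusted p = 0.0177), and Gng12 higher by 0.23 ± 0.0427 (adjusted p = 0.0184). Both calls were lost without PBS replicate 1 or 2 or any IL-4 array.

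Downstream, 3 of 20 adenylyl cyclases and phosphodiesterases rose and 8 fell with LPS (55.0%, against 37.8% of all rows). Pde4b, which degrades cAMP in myeloid cells, rose by 2.54 ± 0.112 (limma adjusted p = 5.98e-07), and by 0.79 ± 0.112 with IL-4 (adjusted p = 0.00595). Pde7b moved in opposite directions, by 0.97 ± 0.0799 with LPS and -0.59 ± 0.0799 with IL-4 (adjusted p = 2.48e-05 and 0.00487). The cyclases Adcy7 and Adcy9 gave -0.85 and -0.75 with LPS, and Adcy2 rose by 0.51 with IL-4 (adjusted p = 0.0246), a call lost without PBS replicate 1 or 2 or any IL-4 array. Of 6 phospholipase C beta and IP3 receptor genes, the Gq effectors, 2 rose and 2 fell with LPS (66.7%, against 37.8% of all rows). Plcb2, the isoform of blood cells, changed by -1.50 ± 0.312 (adjusted p = 0.00513), with replicate 3 lower than the mean of replicates 1 and 2 in PBS and in LPS (-0.80 and -1.06), while Plcb4 and Plcb3 rose by 0.55 and 0.46. Itpr3 gave -0.27. None of the 6 passed with IL-4 (limma, 1 with an unadjusted p under 0.05, as for 4398 of 21212 rows).

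Of 7 receptor kinases and arrestins, which end signaling at the receptor, 4 fell and none rose with LPS (57.1%, against 37.8% of all rows, median -0.61). Arrb1, beta-arrestin 1, changed by -1.54 ± 0.102 (limma adjusted p = 6.82e-06) and Grk4 by -0.83 ± 0.225 (adjusted p = 0.0183). The call of Grk4 was lost without PBS replicate 3 or LPS replicate 1 or 2. With IL-4 Grk3 was the only one to pass, at -0.44 ± 0.102 (adjusted p = 0.0445), a call kept under 9 of 20 alternatives and lost without any array other than PBS replicate 3 or LPS replicate 3. Of 12 other regulators of G alpha 5 fell with LPS and none rose (41.7%, against 37.8% of all rows). With the median of each array subtracted 2 of them rose and 2 fell, where 43.3% of all rows were called. Arhgef11 (-0.67) and Arhgef1 (-0.46), exchange factors that carry an RGS-like domain, were the leading falls (adjusted p = 0.000667 and 0.00417). None of the 12 passed with IL-4 (limma, 3 with an unadjusted p under 0.05, as for 4398 of 21212 rows).

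**Figure D4:**
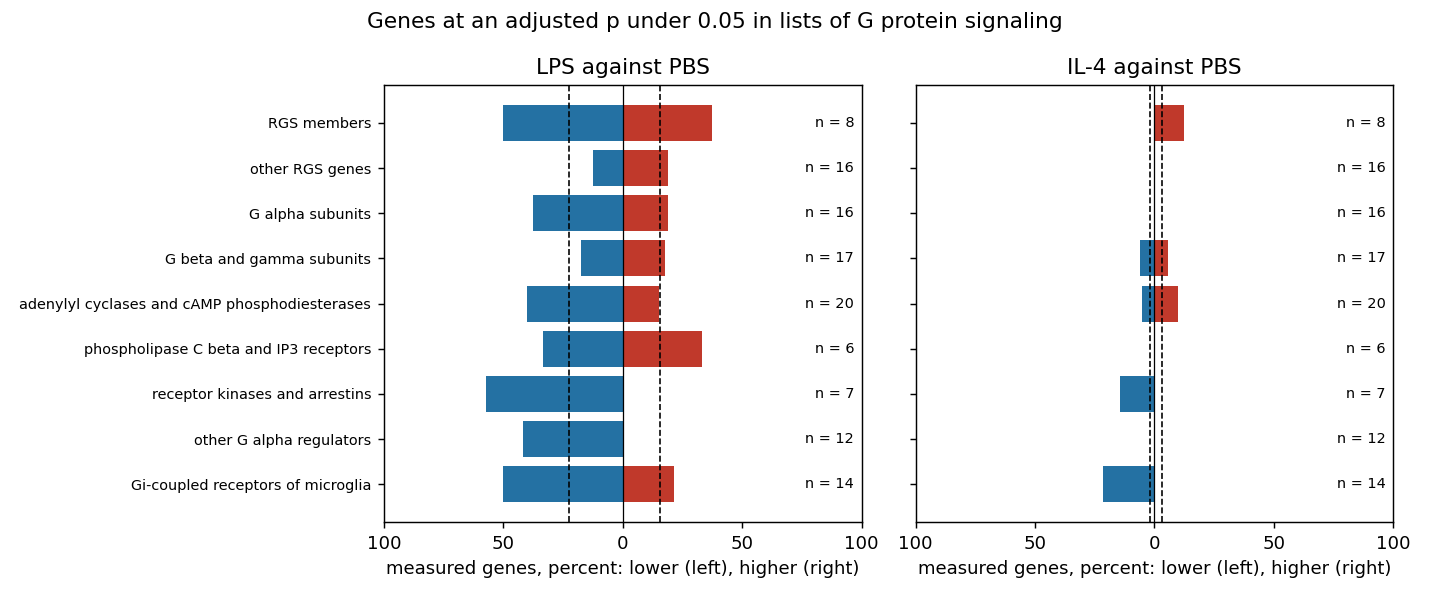
Percent of the measured genes called lower (bars to the left) and higher (bars to the right) at an adjusted p under 0.05 (limma) in the 8 RGS genes, the 16 other RGS genes and 7 lists of G protein signaling, for LPS against PBS and IL-4 against PBS. Dashed lines mark the share of all rows called (22.4% lower and 15.4% higher with LPS, 2.05% and 3.35% with IL-4) and n is the number of measured genes, and every list has calls with LPS while 4 of the 9 have none with IL-4.

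The genes whose values over the 9 arrays lay nearest to an RGS gene were found for the 5 genes that changed by at least 1.0 on the log2 scale. Likeness was the root mean square difference of values centred on each gene's own mean, in log2 units. Nearest to Rgs16 were Malt1 (0.163), a protease of NF-kappaB signaling, Tma16 (0.170) and Csrnp1 (0.177). Nearest to Rgs1 were Clec2d (0.121), Tmem229b (0.130) and Morc3 (0.147), and nearest to Rgs2 were Dnajc28 (0.138), Kcnj13 (0.138) and Cnnm2 (0.140). Rgs10 was followed by Nudt16 (0.0725), Slc38a9 (0.0761) and Man1c1 (0.0831), and Rgs14 by Stat5a (0.0737), a transcription factor of cytokine receptors, Gsdmd (0.0769), the pore-forming gasdermin of pyroptosis, and Pi4k2b (0.0786). The measure includes the changes with LPS and IL-4 and the deviations of replicate 3, and was computed over the same 9 arrays.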

How the data were processed

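The deposited log2 expression values were obtained by the authors with RMA from the affy package (versions not given in the sources used here), which corrects background, equalizes array distributions and summarizes the probes of a gene. They were used as deposited, with no further scaling. Rows are named by gene identifiers, and 18786 of 21212 were given 1 symbol, 6 several and 2420 none. Array medians lay between 7.20 and 7.39, and the number of arrays limits the precision.

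Conditions came from the sample labels. A linear model with a mean per condition was fitted to all 9 arrays and all rows (limma 3.58.1 with eBayes, R 4.3.3), with the Benjamini-Hochberg adjustment taken over every row. Genes were called at an adjusted p under 0.05. The RGS genes and all lists were chosen with earlier results of these data known. Named are all 8 RGS genes, the 2 called members of each pathway list with the largest rise and the 2 with the largest fall in each comparison with PBS, every called gene among the other RGS genes, and the 3 rows nearest to each RGS gene called with a log2 difference of 1.0 or more. Rgs4, Rgs9, Rgs20, Rgs22 and the single cell type markers given with values were chosen after their values were seen. Markers of lymphocytes and granulocytes averaged 4.52 to 4.79 and 5.78 to 6.11 on the arrays.

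Replicate numbers were checked for pairing from the data: the correlation of deviations from the condition means was 0.578, 0.651 and 0.800 for PBS and LPS arrays with equal numbers, 0.605 for PBS replicate 1 with LPS replicate 2, and 0.339, -0.255 and 0.0752 for IL-4 and PBS arrays with equal numbers. The numbers were taken to pair LPS and PBS only. The 20 alternatives were Student's t-test as named in the methods, a fit of only 6 arrays, array weights (statmod 1.5.0), robust eBayes, eBayes with a trend, quantile normalization, subtraction of array medians, leaving out the dimmest 7070 rows, the replicate block over 9 or 6 arrays, 7 arrays, and leaving out each array in turn. The replicate block was also fitted to the comparisons with IL-4, although IL-4 numbers were not taken to pair with those of PBS or LPS. There, a call lost under it does not show that the call depends on pairing. The procedure was tested on simulated data. Tables and figures used Python 3.11.15, numpy 2.4.6, pandas 2.3.3 and matplotlib 3.10.9. The miRNA arrays of the study were not used here.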

Additional observations from a re-analysis of the deposited data

How the results depend on the processing

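Under all 20 alternatives the 7 calls in LPS against PBS and the 7 in LPS against IL-4 kept their direction and their side of the threshold. The number of the 8 RGS genes called in IL-4 against PBS was 1 as reported. It was 6 with array weights (39.1% of all rows, against 5.40% as reported) and 4 on the 7 arrays that leave out replicate 3 from PBS and LPS (30.1%). It was 0 with quantile normalization (5.45% of all rows), with array medians subtracted (4.3%) and with a replicate block over only the 6 arrays (1.35%). When each array was left out in turn it lay between 0 and 2, where 2.2% to 9.58% of all rows were called. With Student's t-test and with a fit of only the 6 PBS and IL-4 arrays the number stayed at 1, but Rgs10 passed and Rgs16 did not. With the replicate block 7 of the 8 passed in LPS against PBS, as without it, and beyond the 8 other RGS genes given in the report it changed no count in that comparison by over 1.5 times. Subtracting the array medians moved the median of all rows in LPS against PBS from 0.01 to 0.12. The sign of Rgs18 in LPS against IL-4, -0.03 as reported, turned with array weights (0.02), with array medians subtracted (0.12) and on the 7 arrays (0.05), and lay between -0.10 and 0.05 when each array was left out. With array weights, Rgs18 passed in both comparisons with PBS (-0.55 and -0.57). Of 29 named results of the lists in LPS against PBS 20 kept their call in every alternative, and of 8 in IL-4 against PBS 2 did, with no change of sign. The causes were not tested. Whether dim genes such as Rgs18 lay above background was not tested.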
